A study of Sus scrofa with 16 samples.

Results

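Goblet cells of the pig small intestine were taken as the barcodes in which 4 goblet products together made up at least 2% of all unique molecular identifiers (UMIs, counted transcript molecules). The 4 genes were TFF3, CLCA1, MUC2 and SPINK4, and the barcode had to hold no UMI of PTPRC, the pan-leukocyte gene CD45. A barcode entered only if it reached 1000 UMIs and 500 genes and if the 13 mitochondrial genes took no more than 25% of its UMIs. Barcodes of the ileum without patches whose UMI number was 10-fold or more greater in the duodenal matrix were dropped. This gave 103 goblet barcodes among 7061 kept barcodes. The tissue came from mixed-breed female pigs aged 7.5 weeks, untreated as far as the labels say. Duodenum just below the pylorus (DUOD), the jejunum (JEJ), patch-bearing ileum (IPP, with Peyer's patches) and ileum free of patches (NoPP) were each deposited as 1 droplet library matrix under 4 sample titles. The barcodes carry no mark of the title they came from, so each region is 1 sample here and differences between regions have no replicate check. Cells were shaken off the tissue in dithiothreitol and then EDTA, spun on Percoll and passed through a fine nylon filter, so goblet shares are shares of what this preparation released.

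Goblet cells are the mucus cells of the gut lining. They make the gel-forming mucin MUC2, which is built in the endoplasmic reticulum, covered with O-linked sugar chains in the Golgi, packed into granules and released by exocytosis together with trefoil peptides such as TFF3, the chloride channel accessory protein CLCA1 and the small protease inhibitor SPINK4. The factors ATOH1 and SPDEF direct secretory progenitors towards this fate, while Notch signalling through HES1 directs them towards absorption. Enteroendocrine cells, the hormone cells of the gut, are the other common secretory lineage and share part of this machinery.

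The label was checked on genes outside the gate. REG4, a secreted lectin of goblet and endocrine cells, stood at 9468, 16579.6, 38329 and 21667 CPM (a gene's UMIs as parts per 1e6 of all UMIs, summed over the barcodes of a library) in goblet barcodes of DUOD, JEJ, IPP and NoPP. In the other epithelial barcodes of the same libraries it lay between 10.8 and 225 CPM. ATOH1 was at 23.7, 13.1, 4.61 and 14.3 CPM in the 4 goblet sums and at 0 in enteroendocrine barcodes. The genes of other cell types were low in part. The T and innate lymphoid list summed to 35.5 to 121 CPM in goblet barcodes against 14918 to 40363 CPM in PTPRC-positive barcodes, with 6 of its 19 matched genes at 0 in all goblet barcodes. The hormone and endocrine list summed to 45.8 to 237 CPM. The enteroendocrine class was defined with this list, so its own sums of 236020 CPM or more are set by that choice. The enterocyte list was not low, at 22203, 10742, 6524 and 7059 CPM in the same order, with none of its 18 matched genes at 0. A few members held most of it: 1 barcode had 1831 of the 1876 UMIs of the list in DUOD, and 1 had 81.6% of those in NoPP. Without the 10 mixed members described next the sums were 1204, 3476, 2218 and 1407 CPM. The tuft list was near 0 in all 4 sums (0 to 13.8 CPM, 9 of 11 matched genes at 0). The Paneth list summed to 2308, 1737, 228 and 1557 CPM in goblet barcodes against 326, 345, 81.0 and 682 CPM in other epithelial ones. Of its UMIs 95.4% in DUOD and 95.7% in JEJ lay in 1 barcode. In DUOD the cell cycle, crypt and BEST4 lists were also higher, at 1752, 450 and 1006 CPM against 264, 101 and 592. In JEJ, IPP and NoPP the cell cycle and BEST4 lists were lower than in other epithelial barcodes, and the crypt list in NoPP only.

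The gate fell in a sparse stretch of the distribution. The 5 nearest barcodes below it had 1.17, 1.18, 1.31, 1.37 and 1.56% of their UMIs in the 4 genes, and the 3 nearest above it had 2.18, 2.25 and 2.27%. Of the 4 duodenal members 2 lay among those 3. These 2 held 47111 and 21152 of the 84494 goblet UMIs of DUOD, so the goblet sums of DUOD are mainly theirs. In 10 of the 103 members another cell type also showed. For 8 of these the enterocyte list took at least 2% of UMIs (at most 7.67%), 1 in IPP had 2.17% endocrine UMIs, and 1 in IPP held 20 leukocyte UMIs. One JEJ member, that is 1 of 20, was also a kept barcode in IPP, where it had 38.1% of its JEJ depth. Values without these 10 barcodes are given beside the enterocyte genes, and beside any other named gene whose call they end or whose fold they move by over 1.5 times.

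Goblet barcodes were a small share of the epithelium in the upper gut and a large one in the ileum. They made up 1.50% of 267 epithelial barcodes in DUOD (4 barcodes; exact Clopper-Pearson 95% interval 0.410 to 3.79%), 6.29% of 318 in JEJ (20; 3.88 to 9.55%), 17.5% of 234 in IPP (41; 12.9 to 23.0%) and 30.2% of 126 in NoPP (38; 22.3 to 39.0%). Intervals here and below cover counting error only. No interval of one library met that of the next in this order except those of IPP and NoPP, which overlapped. As a share of all kept barcodes, most of which were leukocytes in the ileum, the values were 0.557, 2.03, 1.25 and 1.82%, so the order of the regions depends on the denominator: other epithelial barcodes fell from 223 in DUOD and 278 in JEJ to 163 in IPP and 52 in NoPP. Fewer goblet cells and fewer released or surviving ones cannot be told apart. With the 121 ileal barcodes shared with DUOD kept, the NoPP share was 16.6%, and with a mitochondrial limit of 10% the IPP share was 30.0% of 60 epithelial barcodes.

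**Figure D1:**
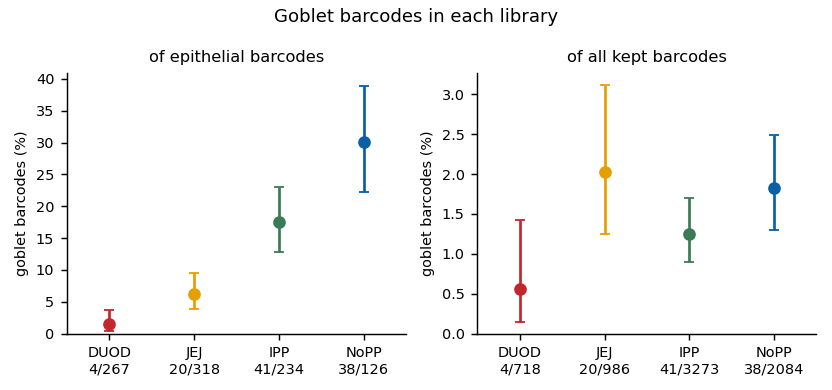
Share of barcodes called goblet in each library, in percent, of epithelial barcodes and of all kept barcodes, with exact 95% binomial intervals as bars. The share of epithelial barcodes runs from 1.50% in DUOD to 30.2% in NoPP, while the share of all kept barcodes stays between 0.557% and 2.03%.

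Members differed in how much of their RNA went to mucus. From DUOD to NoPP, in the order of the libraries above, their median depth was 16413, 11374.5, 16157 and 12253 UMIs, and the median number of genes was 3241.5, 2533, 3161 and 2824.5. The gate genes took a median of 7.09, 22.6, 18.9 and 20.0% of UMIs, and up to 35.2% in 1 jejunal barcode. TFF3 was the main product, with per-barcode medians of 4.57, 14.5, 11.6 and 12.5% of all UMIs and a range in IPP of 1.89 to 17.7%. SPINK4 followed at medians of 2.00, 5.47, 5.12 and 4.70%. CLCA1 was at 0.190, 0.887, 0.945 and 1.48%, and MUC2 at 0.502, 0.620, 0.823 and 0.698%. These values chose the members and are a description. REG4, which the gate did not use, had medians of 2.06, 1.61, 3.45 and 1.71% and spread widely within each library, from 0 to 4.63% in JEJ, 0.242 to 8.31% in IPP and 0 to 5.82% in NoPP. The mitochondrial share had medians of 15.1, 14.4, 10.6 and 8.89% in the same order.

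**Figure D2:**
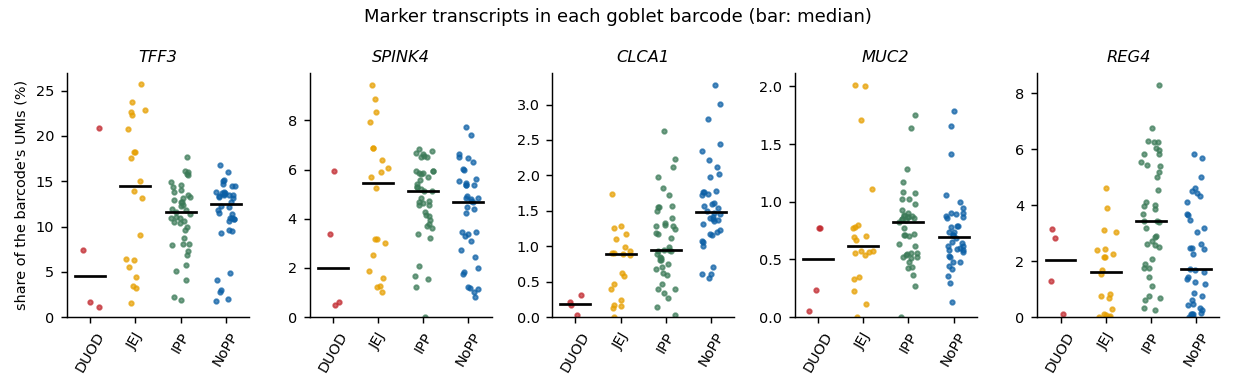
Percent of each goblet barcode's UMIs from TFF3, SPINK4, CLCA1, MUC2 and REG4 in the 4 libraries; each point is a barcode and each line a median. TFF3 takes the largest share in every library, with a median of 14.5% in JEJ, and REG4 ranges from 0.242 to 8.31% within IPP.

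To find what else marks these cells, UMIs were summed per library and class and goblet barcodes were compared with 716 other epithelial and 126 enteroendocrine barcodes, with the library as a block and the 4 libraries as the units of spread. The gate genes and PTPRC were left out of the sums. The same barcodes were chosen on the gate genes, so the calls describe the class that the gate picks. Against other epithelial barcodes 662 of 5430 genes tested were higher (12.2%) and 783 lower (14.4%) at an adjusted p under 0.05 by edgeR's quasi-likelihood test. The count depends on the scaling: with plain library totals in place of trimmed-mean factors 1094 were higher and 404 lower, which is 73.0% higher in place of 45.8%, with a shift of all genes' log2 folds by a median of 0.34. No gene called both ways changed direction. The counts without 1 library were 840 and 970 without DUOD, 403 and 369 without JEJ, 321 and 360 without IPP, and 343 and 342 without NoPP. The median log2 fold of all genes tested was -0.07.

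The mucus products outside the gate had the highest median of the lists. Of 15 mucus genes tested (29 of the list's 45 names were matched in the files), 9 were higher and 1 lower, with a median log2 fold of 4.05. TFF2, a trefoil peptide usually known from the stomach, reached 1692, 10274, 4940.2 and 4508 CPM in the goblet sums of DUOD, JEJ, IPP and NoPP. It was at 196 CPM in other epithelial barcodes of DUOD and at 2.47 to 4.65 in the other 3 libraries. Goblet barcodes were thus higher in 4 of 4 libraries, at a log2 fold of 9.69 ± 1.36 (SE, n = 4 libraries; edgeR adjusted p = 4.7e-04; 9.01 to 10.94 with each library left out in turn). AGR2, a disulfide isomerase needed for mucin folding, was at 5373, 15712.5, 17860.5 and 14082 CPM against 12.3 to 201 (log2 fold 7.36 ± 1.22, edgeR adjusted p = 0.0013). REG4 rose by 8.03 ± 1.30 (edgeR adjusted p = 0.0011), also in all 4 libraries. WFDC2, a secreted protease inhibitor, was called higher (6.57 ± 0.87, edgeR adjusted p = 3.6e-04) on low levels of 59.2, 0, 7.69 and 18.4 CPM, so in 3 of 4 libraries. RETNLB, a resistin-like antibacterial protein, was at 1136, 2310.1, 0 and 184 CPM. RETNLB passed the test (log2 fold 5.27 ± 1.44, edgeR adjusted p = 0.029), but 1 barcode held 70.7% of its goblet UMIs, the adjusted p was 0.10 without JEJ and 0.055 without IPP, and with the gate at 5% the fold was -0.03. SPINK1, a trypsin inhibitor, was the list's lower gene (edgeR adjusted p = 0.026), named after its value was seen, and lost that call without JEJ, IPP or NoPP (0.15, 0.096 and 0.10).

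Enzymes that build O-glycans were higher in part. Of 17 glycosylation genes tested 9 were higher and 1 lower (median 1.25), and 13 of the 44 matched genes had no UMI in any goblet barcode. GALNT5, an enzyme that adds the first sugar of mucin chains, was at 82.8, 108, 87.6 and 96.2 CPM in the goblet sums and at 0 to 3.02 CPM in other epithelial barcodes. The 4 goblet values lay close together and above all the others (log2 fold 7.71 ± 0.62, edgeR adjusted p = 1.2e-05; 6.97 to 8.55 with a library left out). GCNT3, which branches the chains, was at 59.2, 173, 334 and 336 CPM (log2 fold 3.38 ± 0.64, edgeR adjusted p = 0.0028). ST6GALNAC1, which caps them with sialic acid, was at 71.0, 177, 105 and 169.8 CPM (2.96 ± 0.51), and CHST4, a sulfotransferase, at 35.5, 128, 188 and 254 CPM (2.89 ± 0.42). GALNT7 and B4GALT3 rose by 1.78 and 1.40, and lost their calls without JEJ (adjusted p = 0.057 and 0.11) or NoPP (0.063 and 0.11), B4GALT3 also without IPP (0.072). The lower gene was GAL3ST1, a sulfotransferase of glycolipids, at -0.96, and it lost its call without JEJ, IPP or NoPP (adjusted p = 0.15, 0.10 and 0.060) and with library totals (0.15). The count of higher genes was 13 without DUOD, 7 without JEJ, 6 without IPP and 7 without NoPP.

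The enzymes that supply activated sugars moved the same way. Of 22 tested 12 were higher and 1 lower (median 0.97; 8 to 14 higher with a library left out, 8 without IPP or NoPP). GNE, which starts sialic acid synthesis, was at 130.2, 189.8, 206 and 268 CPM against 9.98 to 27.2 in other epithelial barcodes (log2 fold 3.54 ± 0.25, edgeR adjusted p = 4.6e-06). No library overlapped. The hexosamine steps GNPNAT1 and UAP1 rose by 2.61 ± 0.34 and 2.38 ± 0.34, and GMDS and TSTA3, which make GDP-fucose, by 2.03 ± 0.28 and 1.81 ± 0.37. HK2, the hexokinase that traps glucose, was at 23.7, 49.1, 56.9 and 92.1 CPM against 0.192 to 7.55 (4.85 ± 0.52). PGM1, which turns sugar phosphates towards glycogen, was lower at -1.27 (-2.37 without the mixed members) and was named after its value was seen. It lost its call without JEJ, IPP or NoPP (adjusted p = 0.11, 0.075 and 0.074) and with library totals (0.087).

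Genes of protein folding and of the stress response of the endoplasmic reticulum (ER) were higher in large numbers but by smaller folds. Of 38 folding genes tested 22 were higher and 1 lower (median 0.93), of 31 genes of import into the ER 14 were higher and none lower (median 0.74; 24 higher and a median of 1.08 with library totals), and of 12 stress sensors and their factors 9 were higher and none lower (median 1.14). QSOX1, a sulfhydryl oxidase of the secretory pathway, was at 142, 268, 334 and 344 CPM in goblet sums and at 4.52 to 10.6 CPM in other epithelial barcodes (log2 fold 5.31 ± 0.44, edgeR adjusted p = 1.4e-05). SELENOM rose by 4.26 ± 0.34, the reductase DNAJC10 by 3.51 ± 0.32 and the disulfide isomerase TXNDC5 by 3.22 ± 0.35, each in 4 of 4 libraries. ERN2, the mucous-cell form of the ER stress sensor IRE1, was at 59.2, 131, 121 and 106 CPM against 0.490 to 4.53 (5.38 ± 0.57, edgeR adjusted p = 8.2e-05), and its substrate XBP1 rose by 2.09 ± 0.25. CREB3L4 and CREB3L1, membrane-bound factors that are cut free in the Golgi, rose by 5.61 ± 0.52 and 4.68 ± 0.49. The import genes were the weakest group. STT3A and SRPRB, of the oligosaccharyl transferase and the signal receptor, rose by 1.55 ± 0.29 and 1.53 ± 0.29, and SEC61B, SEC61A1, TRAM1 and OSTC by 1.05 to 1.53, all 4 of which lost their calls without at least 1 library (adjusted p up to 0.070, 0.15, 0.068 and 0.17). Import genes called higher numbered 18 without DUOD, 4 without JEJ, 3 without IPP and 2 without NoPP; folding genes 24, 14, 9 and 12; stress genes 10, 7, 4 and 5. The folding gene called lower was 1 of 2 gene models named SYVN1, at -1.07, while the other model was higher. The lower call was lost without IPP (adjusted p = 0.053) and with library totals (0.058). HERPUD1 rose by 1.85 ± 0.38, with an adjusted p of 0.053 without IPP. CREB3L2 rose by 1.84 ± 0.45, but by 1.20 without IPP (adjusted p = 0.12) and with an adjusted p of 0.10 without NoPP, and ATF4 rose by 1.16 ± 0.25, with an adjusted p of 0.080 without IPP and 0.065 without NoPP.

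Genes of vesicle traffic between ER and Golgi had a median like that of the folding genes, and granule genes a higher one. Of 34 traffic genes tested 22 were higher and 1 lower (median 0.93; 23, 15, 9 and 9 higher without DUOD, JEJ, IPP and NoPP). KDELR3, which returns ER proteins from the Golgi, was at 94.7, 160.3, 238 and 178 CPM in goblet sums, 42.6 and 26.9 CPM in other epithelial barcodes of DUOD and JEJ, and 4.93 and 3.02 CPM in those of IPP and NoPP (log2 fold 3.39 ± 0.59, edgeR adjusted p = 0.0016). TMED3, TMED9, ARF4, SEC24D and SEC16A, parts of the transport vesicle machinery, rose by 1.80 to 2.58. SAR1B, at -1.57 (-2.58 without the mixed members), was the lower one. Of 23 granule genes tested 14 were higher and 1 lower (median 1.27; 15, 11, 10 and 9 higher without DUOD, JEJ, IPP and NoPP). MLPH, which links secretory granules to myosin motors, was at 71.0, 160.3, 189 and 301 CPM against 0 to 2.69 (6.35 ± 0.60, edgeR adjusted p = 1.7e-04). The synaptotagmin-like SYTL2 was at 142, 314, 257 and 376 CPM against 2.69 to 7.55 (5.77 ± 0.42, edgeR adjusted p = 5.0e-06). SYT7, which acts at membrane fusion, rose by 5.26 ± 0.57, RAB26, a small GTPase of secretory granules, by 4.51 ± 0.53, and GSN, which severs actin filaments, by 4.43 ± 0.46. PTPRC-positive barcodes held 116 to 333 CPM of GSN, against 117 to 187 CPM in goblet sums. The lower granule gene was MYO5B, a myosin of the brush border recycling route, at -0.88, and it lost its call without JEJ, IPP or NoPP (adjusted p = 0.096, 0.19 and 0.15) and with library totals (0.19).

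Among transcription factors, 10 of 15 secretory fate genes tested were higher and none lower (median 1.50; 10, 7, 6 and 7 higher without DUOD, JEJ, IPP and NoPP). SPDEF stood at 556, 802, 1691 and 1385 CPM in goblet sums, at 2.30 to 13.6 CPM in other epithelial barcodes and at 0 to 14.2 CPM in enteroendocrine barcodes. Its lowest goblet value was far above the highest of either class (log2 fold 7.25 ± 0.46, edgeR adjusted p = 2.7e-06; 6.94 to 7.48 with a library left out). FOXA3 was at 47.3, 137, 197 and 207 CPM against 0.822 to 2.69 (6.01 ± 0.44, edgeR adjusted p = 5.0e-06), FOXA2 rose by 3.43 ± 0.49 and the HES-related HES6 by 2.56 ± 0.40. Of the 30 matched genes 8 had no UMI in goblet barcodes, among them GFI1, NEUROG3, INSM1, PAX4, PAX6, POU2F3 and RUNX1T1. Factors of the absorptive lineage were called in both directions: of 17 tested 2 were higher and 4 lower (median -0.09, and 0.25 with library totals). Of all genes tested 12.2% were higher and 14.4% lower. ID3 rose by 3.28 ± 0.51 and GATA6 by 1.40 ± 0.20, while CREB3L3, a regulator of lipid genes, fell by 2.00 on the log2 scale (adjusted p = 0.0021). MAF fell by 2.25, NR1I2 by 1.23 and HNF4G by 1.20, but each lost its call when 1 library was left out (MAF without IPP or NoPP, NR1I2 and HNF4G without JEJ, IPP or NoPP; adjusted p up to 0.087, 0.085 and 0.10), and NR1I2 and HNF4G also with library totals (0.083 and 0.079). Without the mixed members CREB3L3 was at -3.33, MAF at -3.81 and HNF4G at -1.85. The Notch ligand JAG1 fell by 2.32 (adjusted p = 0.016), the 1 called gene of 8 tested in the Notch and Wnt list, and lost that call without JEJ, IPP or NoPP (0.098, 0.090 and 0.069). JAG1 did not pass the low-count filter without DUOD or the mixed members, with the gate at 1 or 5% or with a minimum of 2000 UMIs.

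**Figure D3:**
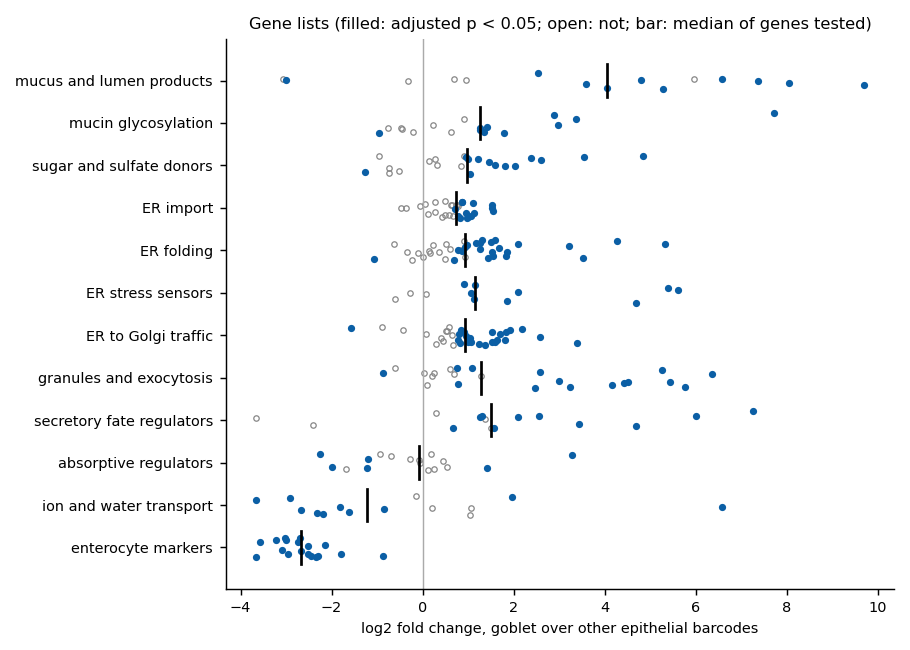
Log2 fold of goblet over other epithelial barcodes for each tested gene of 12 lists; filled points passed the edgeR test at an adjusted p under 0.05 and bars are list medians. The mucus list has the highest median, 4.05, and the enterocyte list the lowest, -2.68.

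**Figure D4:**
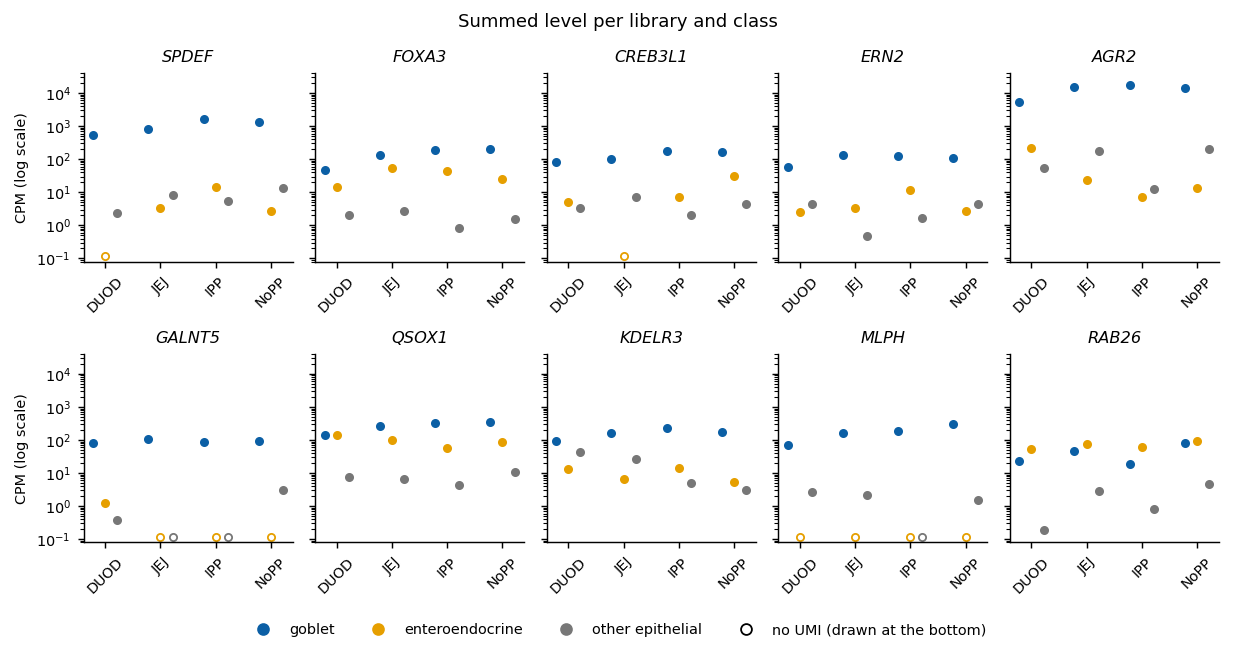
Summed CPM on a log axis of 10 secretory genes in goblet, enteroendocrine and other epithelial barcodes, 1 point per library; open points mark sums with no UMI. SPDEF is at 556 CPM or more in goblet sums and at 14.2 CPM or less in the other classes, while RAB26 is at 18.5 to 83.9 CPM in goblet and 53.2 to 91.5 CPM in enteroendocrine sums.

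All 18 enterocyte genes tested fell (median log2 fold -2.68), and 16 of them did so with library totals. ANPEP, a brush border peptidase, was at 166, 55.6, 239.9 and 184 CPM in goblet sums against 419 to 2305 CPM (-3.22 ± 0.35, edgeR adjusted p = 9.0e-05). The ileal bile acid genes FABP6 and SLC10A2 had -3.66 ± 0.82 and -3.58 ± 0.30. Without IPP 12 genes of the list were called, without NoPP 13, without JEJ 14. With the 10 mixed members left out the median was -4.96, ANPEP was at -5.65 and FABP6 at -5.55, and SLC10A2 did not pass the low-count filter. Of 14 genes of ion and water secretion tested 2 were higher and 8 lower (median -1.23; 3, 3, 3 and 3 higher and 9, 5, 4 and 5 lower without DUOD, JEJ, IPP and NoPP). Of all genes tested 14.4% were lower and 12.2% higher, the latter near the share of higher genes in this list. FXYD3, a regulator of the sodium pump, was at 201, 373, 334 and 346 CPM against 0 to 12.7 (6.58 ± 0.73, edgeR adjusted p = 1.0e-04). SLC12A2, the basolateral chloride importer NKCC1, was at 308, 179.96, 126 and 413 CPM and rose by 1.95 ± 0.44 (edgeR adjusted p = 0.0074), but by 0.68 with a mitochondrial limit of 10% (adjusted p = 0.42). In DUOD 2 of 4 members held a UMI of SLC12A2, and the highest was at 1087 CPM. The water channel AQP8 fell by 2.90, the potassium channel KCNQ1 by 2.67 and the chloride channel CFTR by 3.65, the last with an adjusted p of 0.063 without JEJ. AQP8 and CFTR were lower in 3 of 4 libraries, with DUOD as the exception: there CFTR was at 35.5 CPM in goblet and 20.9 CPM in other epithelial barcodes. That goblet value came from 2 of 4 members and is the level of 3 UMIs. KCNQ1 was at -4.11 and CFTR at -4.53 without the mixed members, and AQP8 did not pass the low-count filter.

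Defence genes and receptors changed in both directions, beside 12.2% of all genes tested higher and 14.4% lower. Of 7 antimicrobial genes tested 3 were higher and 2 lower. Angiogenin, ANG, was at 118, 189.8, 111 and 188 CPM against 0.734 to 4.99 (log2 fold 6.09 ± 0.50, edgeR adjusted p = 1.3e-05). One of the gene models named DEFB1 (ENSSSCG00000029990) was at 118, 85.1, 49.2 and 178 CPM and rose by 3.42 ± 1.01 (edgeR adjusted p = 0.034), but not without JEJ (adjusted p = 0.079) or IPP (0.064), and with a mitochondrial limit of 10% its fold was 0.73 (adjusted p = 0.75). PIGR, which carries antibody across the epithelium, fell by 3.93, and LEAP2, a liver and gut peptide, by 2.81. Without JEJ the PIGR fold was -2.60, and with the gate at 1% it was -0.25 (adjusted p = 0.81), while without IPP or NoPP PIGR did not pass the low-count filter. LEAP2 was at -4.97 without the mixed members. Of 17 receptor and signal genes tested 4 were higher and 3 lower (median -0.20, and 0.14 with library totals; 2 higher without JEJ or NoPP, 1 lower without JEJ, IPP, NoPP or the mixed members). PTGER4, a prostaglandin E2 receptor, was at 130.2, 128, 451 and 467 CPM against 19.3 to 30.2 (3.34 ± 0.34, edgeR adjusted p = 5.4e-05). The epidermal growth factor ligand AREG rose by 2.51 ± 0.62, lost that call without JEJ, IPP or NoPP (adjusted p = 0.076, 0.11 and 0.10) and was lower in DUOD, and EGFR rose by 1.90 ± 0.38 (adjusted p = 0.057 without NoPP). IL18 fell by 2.84 ± 0.38, and was at -3.68 without the mixed members. The receptors for the type 2 cytokines that drive goblet cells, IL4R and IL13RA1, had log2 folds of 0.07 and 0.03, with neither called. Immediate early and stress genes of dissociation were also higher, 9 of 18 tested with 2 lower: FOS was at 2533, 2605, 4381 and 5326 CPM in goblet sums against 729 to 1136 CPM. Their part in the other results was not tested.

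Outside the lists, 20 genes were taken by size of fold. The largest were TCN1, the vitamin B12 binder haptocorrin, at 2793, 3675, 829 and 634 CPM (log2 fold 8.99 ± 0.89, edgeR adjusted p = 4.7e-05); the unnamed gene ENSSSCG00000027515, at 3835, 34098, 3209 and 7616 CPM (8.87 ± 0.42, edgeR adjusted p = 4.1e-07); SERPINA1, the elastase inhibitor alpha-1-antitrypsin, in its gene model ENSSSCG00000002476 (8.61 ± 0.78); PNLIPRP2, a lipase of the pancreatic family (8.17 ± 0.86); PKIB, an inhibitor of protein kinase A (8.16 ± 0.81); and the secreted protein FAM3D (7.95 ± 0.44, edgeR adjusted p = 1.2e-06). In other epithelial barcodes TCN1 did not exceed 24.6 CPM, PNLIPRP2 22.6 CPM, PKIB 3.07 CPM and FAM3D 4.53 CPM. SLC12A8, CHST9, BAMBI, FAM177B, SIDT1, TSPAN2, PYCR1, COL28A1, PDE2A, RGS2, HSD11B2, SPRED1, STXBP5L and ENSSSCG00000035669 had folds of 5.29 to 7.90. Of these SPRED1 restrains Ras signalling, BAMBI restrains TGF-beta signalling, and HSD11B2 inactivates cortisol. The 10 genes that fell most outside the lists had folds of -3.85 to -3.28 and belong to nutrient handling in part: OTC of citrulline synthesis, the gluconeogenic FBP2, the phosphate and amino acid carriers SLC34A3, SLC6A19 and SLC1A1, and the bile acid receptor NR1H4. These 6 genes lay, with the mixed members left out, between -9.63 (FBP2) and -4.56 (SLC1A1).

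Against enteroendocrine barcodes, the comparison within the secretory lineages, 846 of 5430 genes were higher (15.6%) and 641 lower (11.8%) by edgeR. With library totals 1157 and 392 were called, 74.7% higher in place of 56.9%, with all genes shifted by a median of 0.25. These totals include the hormone and endocrine list, which made up 236020 to 454566 CPM of the enteroendocrine sums. The part of that list in the shift was not tested. Higher and lower genes numbered 895 and 658 without DUOD, 608 and 362 without JEJ, 493 and 339 without IPP, and 523 and 331 without NoPP. The mucus side set the classes apart: TFF2 (log2 fold 9.49 ± 1.35, edgeR adjusted p = 4.5e-04), AGR2 (8.25 ± 1.36), GALNT5 (7.14 ± 0.82), SPDEF (7.85 ± 0.53, edgeR adjusted p = 5.4e-06), CREB3L4 (5.58 ± 0.71) and REG4 (5.16 ± 1.13) were all higher, and TCN1 had 2793 CPM in goblet and 0 CPM in enteroendocrine barcodes of DUOD. MLPH had no UMI in any enteroendocrine barcode, which puts the goblet level, summed over libraries, at least 134-fold higher when 3 UMIs are set as the floor. By the same floor DEFB1 (ENSSSCG00000029990) was at least 63.7-fold, FAM177B at least 78.9-fold and PYCR1, an enzyme of proline synthesis, at least 58.8-fold higher. In the opposite direction PAX6 and RUNX1T1, endocrine factors, had no UMI in goblet barcodes and were at least 28.6-fold and 18.9-fold higher in enteroendocrine barcodes.

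Genes of folding, traffic, import and release passed the test against enteroendocrine barcodes in part, in numbers that depend on the scaling. Of all genes tested 15.6% were higher and 11.8% lower, and the share of import genes higher was near the first value. Of 38 folding genes 15 were higher and none lower, of 34 traffic genes 15 and none, of 31 import genes 5 and none, and of 23 granule genes 8 and 2 (20, 8, 7 and 7 folding genes, 21, 11, 9 and 11 traffic genes, 12, 1, 0 and 3 import genes, and 10, 7, 5 and 5 granule genes were higher without DUOD, JEJ, IPP and NoPP). With library totals 21 folding, 25 traffic, 10 import and 10 granule genes were higher, and 2 granule genes lower. SELENOM had a log2 fold of 0.22 ± 0.30, SYT7 of 0.59 ± 0.46, RAB26 of -0.92 ± 0.42, FXYD3 of -1.07 ± 0.55 and KIAA1324 of -0.12 ± 0.38, with none called. WFDC2 was lower than in enteroendocrine barcodes in 4 of 4 libraries (-2.01 ± 0.49, edgeR adjusted p = 0.0097, and 0.072 without IPP). Among secretory factors 6 were higher and 3 lower of 15, the 3 being PAX6, NKX2-2 and RUNX1T1. HES1, named after its value was seen, was at 237, 187, 134 and 178 CPM in goblet and at 3.38 to 9.90 CPM in enteroendocrine sums (4.51 ± 0.41, edgeR adjusted p = 4.2e-05), and its fold over other epithelial barcodes was 0.54 ± 0.29 (edgeR adjusted p = 0.19). Of 17 absorptive factors 8 were higher and 2 lower, and of 17 receptor and signal genes 10 and none, with AREG at 7.45 ± 0.81 and TNFRSF21, a death receptor, at 4.31 ± 0.52. Enterocyte genes were 12 higher and none lower of 18, but 2 higher and 3 lower once the 10 mixed members were left out, with the median going from 2.40 to 0.20. FABP1 was at 3.20 with them and 1.05 without them (adjusted p = 0.39), and RBP2 at 2.29 and 0.11 (0.90).

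Between regions the summed levels are a description, since each region is 1 library, and the ratio intervals cover counting error only. Of 2609 genes with at least 50 CPM in either library, 367 were more than 2-fold higher in NoPP than in JEJ (14.1%) and 110 lower (4.22%). Of 2605 genes, 78 were more than 2-fold higher in IPP than in NoPP (2.99%) and 133 lower (5.11%). Fewer genes passed 2-fold between the ileal sums than between NoPP and JEJ. JEJ was also the smaller sum, with 20 barcodes and 305616 UMIs against 41 and 650372 in IPP. The part of depth in these counts was not tested. The counts move with the scaling: with gate, mitochondrial and ribosomal genes left out of the totals, 249 genes were lower in NoPP than in JEJ, and 118 higher and 253 lower in IPP than in NoPP. With a mitochondrial limit of 10%, 633 were higher in NoPP than in JEJ, and 147 higher and 217 lower in IPP than in NoPP. With each gene's highest barcode left out 62 were lower in NoPP than in JEJ, and with the mean of the barcodes' CPM 175. The median log2 ratio of all genes was 0.29 for NoPP over JEJ and -0.11 for IPP over NoPP. The enterocyte list summed to 6524 and 7059 CPM in IPP and NoPP against 22203 and 10742 CPM in DUOD and JEJ. Without the mixed members it summed to 2218 and 1407 CPM against 1204 and 3476 CPM, so that DUOD had the lowest sum in place of the highest. The list of dissociation stress genes stood at 21219 and 26434 CPM in IPP and NoPP against 15007 and 14508 CPM in DUOD and JEJ, and DUOD was at 22069 CPM without its mixed member. The part of these lists in the ratios was not tested. Of the secretory machinery, none of 30 import and of 14 glycosylation genes, 1 of 37 folding genes, 1 of 10 stress genes and 2 of 33 traffic genes passed 2-fold between NoPP and JEJ. Among granule genes 3 of 19 were higher in NoPP, of 17 sugar supply genes 2 were higher and 1 lower, and of 17 mucus genes 2 were higher and 3 lower. Without the mixed members 2 of 15 glycosylation, 3 of 38 folding and 3 of 10 stress genes passed.

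Among the genes higher in ileal goblet sums, RGS2, a brake on G protein signalling, was at 23.7 and 29.4 CPM in DUOD and JEJ and at 1516 and 1539 CPM in IPP and NoPP. NoPP was 52.3-fold above JEJ (27.4 to 115), and 55.6% of the 9 jejunal UMIs came from 1 barcode. The NoPP over JEJ ratio of RGS2 was also above 1 in other epithelial barcodes, at 26.7 (7.34 to 146) on 13 and 3 UMIs, and was 0.749 (0.591 to 0.950) in enteroendocrine barcodes. HSD11B2 was at 82.8, 68.7, 810.3 and 1103 CPM, a ratio of 16.1 (10.4 to 26.1), against 9.86 (2.85 to 38.3) in other epithelial barcodes. AREG was at 343, 272, 2193 and 1837 CPM, 6.77-fold above JEJ (5.40 to 8.58), and PKIB at 296, 144, 1050.2 and 904 CPM, 6.28-fold (4.60 to 8.77). In enteroendocrine barcodes the PKIB ratio was 0.497 (0.270 to 0.892), on the other side of 1. BAMBI was at 0, 81.8, 690.4 and 507 CPM, 6.20-fold, with 68.0% of its 25 jejunal UMIs in 1 barcode. RCAN1, an inhibitor of calcineurin, had a ratio of 12.7, EREG, a ligand of the epidermal growth factor receptor, of 7.70, the chemokine CXCL2 of 5.40 and the tetraspanin TSPAN1 of 4.15. MSMB had a ratio of 7.84 but was not high in both ileal sums: it was at 334 CPM in NoPP, 42.5 CPM in JEJ and 21.5 CPM in IPP. GPRL15 had no UMI in JEJ and, with JEJ set to 3 UMIs, was at least 27.9-fold higher in NoPP. In other epithelial barcodes GPRL15 had 27 UMIs in NoPP and none in JEJ. The NoPP over JEJ ratios in that class were 2.51 for AREG, 3.88 for RCAN1, 3.03 for EREG and 2.03 for MSMB. These were above 1 but below the goblet ratios. EREG stood at 510 CPM in that class of NoPP, against 403 CPM in goblet barcodes. BAMBI had no UMI there in NoPP and 2 in JEJ, and PKIB 1 in NoPP and none in JEJ. In goblet sums 6 of the 11 receptor and signal genes were more than 2-fold higher in NoPP and none lower, beside 14.1% and 4.22% of all genes.

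Upper gut goblet sums held other products. TCN1 was 5.79-fold higher in JEJ than in NoPP (5.10 to 6.59), and did not exceed 24.6 CPM in other epithelial or 2.77 CPM in enteroendocrine barcodes of any library. PNLIPRP2 was at 296, 6309, 741 and 1156 CPM, 5.46-fold higher in JEJ than in NoPP (4.97 to 6.004), ENSSSCG00000027515 4.48-fold (4.31 to 4.65) and TFF2 2.28-fold. DUOD was not like JEJ in the last 3: it was the lowest of the 4 sums for PNLIPRP2 and TFF2, on 4 barcodes, 3 of which had no UMI of PNLIPRP2. CA2, a carbonic anhydrase, was at 935 and 599 CPM in DUOD and JEJ and had no UMI in IPP and 1 in NoPP (JEJ over NoPP 293, 51.9 to 11621). In enteroendocrine barcodes CA2 fell the same way by 6.67-fold (4.44 to 10.4). The metallothioneins MT1X and MT1A were 5.58-fold and 2.28-fold higher in JEJ than in NoPP, and the apolipoproteins APOC3 and APOA1, products of enterocytes, 33.4-fold and 13.1-fold. Without the mixed members MT1X was 11.6-fold, MT1A 4.73-fold and APOA1 15.5-fold higher in JEJ, and APOC3, then with no UMI in NoPP, at least 72.2-fold.

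Of 8 regional patterning genes with enough UMIs, 4 were more than 2-fold higher in NoPP than in JEJ and 3 lower. Of all genes with enough UMIs 14.1% were higher and 4.22% lower. ONECUT2, a factor of the upper gut, was at 130.2 and 199.6 CPM in goblet sums of DUOD and JEJ and had no UMI in IPP or NoPP, at least 32.5-fold higher in JEJ than in NoPP. In other epithelial barcodes it was at 166, 158, 0 and 0 CPM. GATA4 had 72.0 CPM in JEJ and no UMI in the 4 duodenal barcodes, PDX1 had 59.2 and 52.4 CPM in DUOD and JEJ, and neither had a UMI in the ileal goblet sums. HOXB7 had no UMI in DUOD and JEJ and 83.0 and 129 CPM in IPP and NoPP, at least 13.1-fold higher in NoPP than in JEJ. It stood at 39.5 and 49.8 CPM in other epithelial and at 85.3 and 91.5 CPM in enteroendocrine barcodes of the ileum. HOXB9 was at 29.2 and 30.7 CPM in ileal goblet sums and at 118 and 211 CPM in enteroendocrine ones, and had no UMI in JEJ in either class. In DUOD 1 goblet barcode held all 5 of its UMIs (59.2 CPM). GATA6 did not pass 2-fold, at 154, 108, 138 and 180.1 CPM (NoPP over JEJ 1.67, 1.11 to 2.57).

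Between ileum with and without Peyer's patches, RASD1, a Ras-like protein induced by glucocorticoids, was at 592 CPM in IPP and 198 CPM in NoPP (2.98-fold, 2.38 to 3.77). TM4SF1 was 43.2-fold (11.7 to 361), FABP2 9.74-fold, S100A2 5.09-fold and APOA1 4.42-fold higher in IPP, and CDA, which had no UMI in NoPP, at least 17.5-fold. TM4SF1 was seen in 6 of 41 IPP members. FABP2 and APOA1 are enterocyte genes, and 7 of the 16 enterocyte genes tested were more than 2-fold higher in IPP, with 2 lower. Of all genes tested in this pair 2.99% were higher and 5.11% lower. The median IPP member had 105 CPM of FABP2. Without the mixed members FABP2 was 5.51-fold and APOA1 3.95-fold higher in IPP, and 8 enterocyte genes had enough UMIs, 5 of them more than 2-fold higher and none lower. In NoPP, MSMB was 15.5-fold, DEFB1 (ENSSSCG00000029990) 3.62-fold (2.39 to 5.61), SLC12A2 3.28-fold (2.52 to 4.29), GUCA2A, the gut peptide guanylin, 3.15-fold and the actin-severing SCIN 2.43-fold higher. The intelectin ITLN2 had 1 UMI in IPP and 660 in NoPP, where 40.2% came from 1 barcode (NoPP over IPP 878, 157 to 34743). Only 6 of 38 NoPP members held a UMI of ITLN2, 4 of them at 1000 CPM or more. The ratio thus rests on few barcodes, which its interval does not cover. RETNLB had no UMI in IPP and was seen in 6 NoPP members. REG4 was 1.77-fold higher in IPP than in NoPP (1.73 to 1.81).

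**Figure D5:**
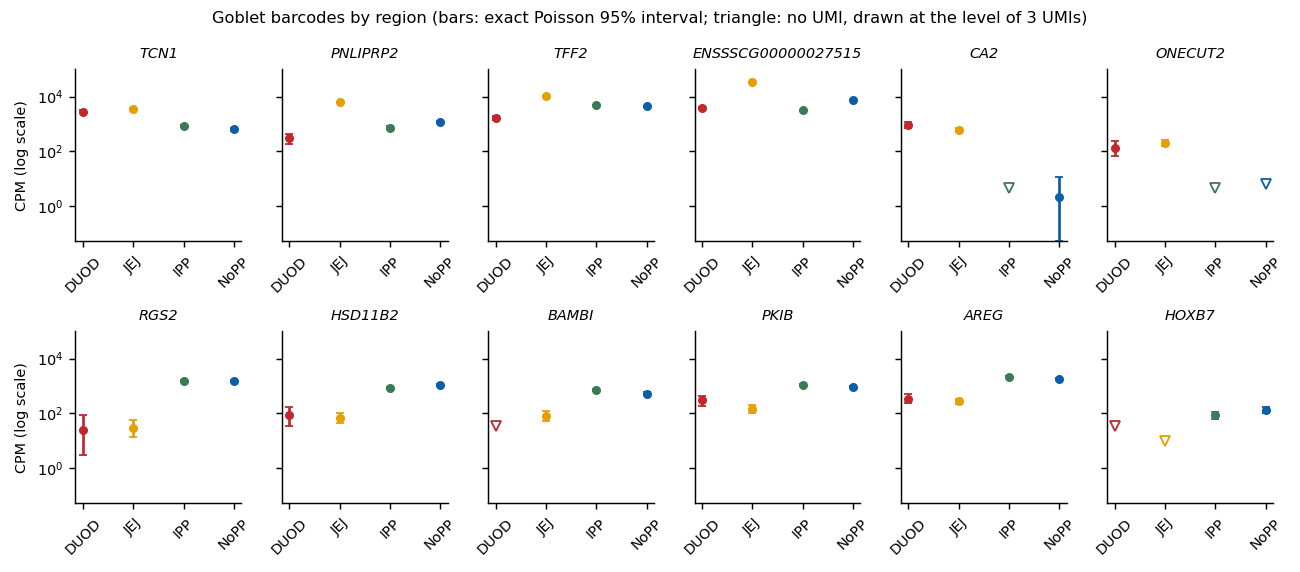
Summed CPM in goblet barcodes of DUOD, JEJ, IPP and NoPP for 12 genes, on a log axis, with exact 95% Poisson intervals as bars; triangles mark sums with no UMI, drawn at the level of 3 UMIs. RGS2 lies at 23.7 and 29.4 CPM in DUOD and JEJ and at 1516 and 1539 CPM in IPP and NoPP, and ONECUT2 has no UMI in either ileal library.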

How the data were processed

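Single-cell UMI counts were measured with a droplet 3' assay. The deposited matrices hold whole UMI counts per gene and barcode, made with Cell Ranger 4 per the file headers (4.0.6 per the submitters' processing notes); coordinates are left out because the genome build is not given in the sources used here. The libraries hold 91813234 (DUOD), 64364750 (JEJ), 65583520 (IPP) and 44726845 (NoPP) UMIs. Python 3.11.15, numpy 2.4.6, scipy 1.17.1, pandas 2.3.3, scanpy 1.11.5, R 4.3.3 and edgeR 4.0.16 were used, with DESeq2 1.42.0 as an alternative.

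Kept barcodes without PTPRC were split into goblet (the gate), enteroendocrine and other epithelial classes. The enteroendocrine limit (8 endocrine genes at 0.5% of UMIs, or the hormone list at 2%) was widened after the data were seen. UMIs were summed per library and class (12 sums) and tested with edgeR's quasi-likelihood test, trimmed-mean factors and the library as a block. Benjamini-Hochberg adjustment ran over 5430 genes, and 59 class-defining genes were left out of the results. Of these, only the gate genes and PTPRC were also taken out of the sums before scaling. No title separates the 4 samples pooled in a library. The p-values thus measure the spread of class differences across the 4 libraries, which are 4 regions and not replicates of 1 region. This spread was estimated over all 12 sums, with dispersions moderated across genes. Each edgeR SE is the absolute log2 fold over the square root of the test's F statistic, and not a separate estimate. Between regions, exact 95% Poisson intervals for levels and exact conditional intervals for ratios were used, with no test. Genes at 0 were set to 3 UMIs for bounds. Doublets were not removed, and leaving out the highest doublet scores was an alternative.

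Named were the 5 markers; up to 6 called genes per list with the largest fold against other epithelial barcodes, and members at 0; outside the lists the 20 higher and 10 lower genes with the largest folds; and for each region pair genes by the interval bound nearest to 1. Some genes that the rule names are not reported here. Members and lists were chosen with earlier results of these data known. The tests were tried on simulated data. Alternatives were the gate, UMI, mitochondrial, doublet and shared-barcode limits, scaling, tool, low-count filter, block, number of cells, each library left out and, chosen after seeing the data, the 10 mixed members and the narrower endocrine limit.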

Additional observations from a re-analysis of the deposited data

Results flagged for a closer look

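Barcodes outside the members also met the goblet gate. Over the mitochondrial limit, 25 of 2187 barcodes in JEJ, 22 of 1558 in IPP and 33 of 902 in NoPP held at least 2% of their UMIs in the 4 gate genes, with median depths of 3386, 3779 and 3595 UMIs. Their summed REG4 level was 1449, 15956 and 2917 CPM, and their summed AGR2 level 1900.2, 8330.5 and 2432 CPM. Among PTPRC-positive barcodes, 6 of 2859 in IPP and 8 of 1876 in NoPP met the gate, with medians of 20 and 35.5 leukocyte UMIs. The PTPRC-positive ones entered no comparison. Those over the mitochondrial limit entered only the alternative with that limit at 40%, where goblet barcodes numbered 29 in JEJ, 52 in IPP and 55 in NoPP.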

How the results depend on the processing

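Of the values of the main comparisons under the alternatives, 135 stayed near the main value and 29 moved. With a mitochondrial limit of 10% the IPP share was 30.0%, and 382 genes were higher and 479 lower than in other epithelial barcodes, 491 higher than in enteroendocrine barcodes, 633 higher in NoPP than in JEJ, and 147 higher and 217 lower in IPP than in NoPP. With shared barcodes kept the NoPP share was 16.6%. With library totals 1094 genes were higher and 404 lower than in other epithelial barcodes, and 392 lower than in enteroendocrine barcodes. With 1 library left out the counts ranged from 321 to 840 higher and 342 to 970 lower against other epithelial barcodes, and from 493 to 895 higher and 331 to 658 lower against enteroendocrine barcodes. With the same number of cells per class 434 and 414 were lower. Without gate, mitochondrial and ribosomal genes 249 were lower in NoPP than in JEJ, and 118 higher and 253 lower in IPP than in NoPP; the mean of barcodes' CPM gave 175 lower in NoPP than in JEJ, and each gene without its highest barcode 62. The cause was not tested. Of the named calls, 96 of 122 against other epithelial and 58 of 76 against enteroendocrine barcodes held with a library left out, and none turned. This covers only fits in which the gene passed the low-count filter. Among others, PIGR, SLC10A2 and CPO did not pass it without IPP or NoPP. Nor did USP18 without DUOD or IPP, JAG1 without DUOD and VIPR1 without JEJ. RETNLB was the 1 named gene that reversed, at -0.030 with the gate at 5%. DESeq2 called 707 higher and 780 lower, and 855 and 700. Without a low-count filter 1143 were lower than in other epithelial barcodes. No paired analysis was possible because the 4 numbered titles of a region share 1 matrix with no mark of the title on its barcodes; the library was the block, and without it 556 genes were higher and 563 lower than in other epithelial barcodes. DUOD rests on 4 barcodes and 84494 UMIs, so a gene at 0 there may still be at up to 35.5 CPM.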

Other observations

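A few goblet barcodes carried ITLN2, an intelectin, at high level. They were picked after the values were seen: 6 of 103 had at least 1000 CPM of it, 1 in DUOD, 1 in JEJ, none in IPP and 4 in NoPP, at 3271 to 35725 CPM. Their median TFF3 level was 27094 CPM against 123996 CPM in the other 97, SPINK4 11701 against 48632 CPM, TFF2 11.6 against 4722 CPM and SPDEF 715 against 1450 CPM. RETNLB had a median of 2627 CPM in them and 0 in the others. LYZ, lysozyme, was at 176 and 152 CPM. Their UMIs of the crypt list numbered 32 in DUOD, 19 in JEJ and 13, 18, 39 and 7 in NoPP. The highest crypt list levels of DUOD (1513 CPM, library median 95.9) and NoPP (2238 CPM, library median 395) lay among them. The DUOD one also held 135 UMIs of the cell cycle list and 1371 CPM of TOP2A, while the median TOP2A level of the 6 was 0. The medians hide a wide spread: TFF3 ran from 11725 to 109424 CPM among the 6. RETNLB was also high outside them: its highest jejunal level, 16931 CPM, lay in another barcode than the jejunal one of the 6, at 14670 CPM. All 41 IPP members are among the other 97.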
